A study of Mus musculus with 12 samples.

Results

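The genes described here encode the nuclear subunits of the mitochondrial respiratory chain and ATP synthase, with a few factors that assemble complex I, measured in the livers of telomerase knock-out and wild-type mice. They were taken as the array's probe sets (called probes here) whose single gene symbol began with Nduf, Uqcr or Atp5, was Sdha to Sdhd or Cyc1, or was a Cox4i, Cox5, Cox6, Cox7 or Cox8 form, without pseudogene symbols, and where a gene had several probes the brightest on average was kept. This gave 90 of 19938 genes, from 115 probes: 34 subunits of complex I, 7 complex I assembly factors (Ndufaf1 to Ndufaf7), 4 subunits of complex II, 9 of complex III, 18 of complex IV with Ndufa4 and Ndufa4l2 counted there, 17 of complex V, and Cox7a2l. Ndufb4 and Cox7c had only probes that carry several gene symbols and were not used.

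Total RNA of 12 livers was hybridised to 12 one-colour arrays, 1 per mouse, and all mice were male C57BL/6J. The groups were first-generation (G1) mTERT KO, mTERT WT, G1 mTR KO and mTR WT, with 3 mice each. mTERT is the reverse transcriptase of telomerase and mTR is its RNA template. KO and WT mice of a set were littermates and matched for age, and the ages themselves were not given in the sources used here. Each label ends in a number from 1 to 3, read here as the set. Nothing else is said of what arrays of 1 number shared, and set 1 of the mTERT line and set 1 of the mTR line come from different litters. The liver was homogenised whole, so fewer cells of a type and less RNA per cell cannot be told apart.

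Mitochondria pass electrons taken from NADH at complex I and from succinate at complex II through ubiquinone to complex III, through cytochrome c to complex IV, and on to oxygen. Complexes I, III and IV pump protons as they do so, and ATP synthase, or complex V, uses the gradient to make ATP. Hepatocytes are rich in mitochondria, and several complex IV subunits exist in a common form and in a form restricted to muscle, lung or testis. Most subunits are nuclear genes whose promoters are known to bind NRF1, the ETS factor GABP, ERR alpha and YY1.

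The values are log2 intensities, with array medians between 4.37 and 4.43. The background was set at 4.34: olfactory receptor genes, which liver is not known to use, had a 95th percentile of that size on average (1015 genes). Of the 90 members, 84 had a mean above it in at least 1 group. The 6 whose means were below it in all 4 groups were Cox4i2, Cox6b2, Cox7b2, Cox8c, Ndufa4l2 and Ndufaf5, of which the Cox forms and Ndufa4l2 are the forms restricted to lung, testis or low oxygen. A filter on dim probes left 88 members for testing, without Cox8c and Ndufa4l2. Among the hepatocyte markers Alb, Apoa1, Ttr, Serpina1c, Cps1 and Cyp2e1 the mean was between 12.95 and 13.09 on every array. Acinar pancreas genes averaged 9.79 on array 1 of mTERT KO, 7.45 and 8.95 on arrays 1 and 2 of mTERT WT, 11.24 on array 1 of mTR KO and 6.98 on array 2 of mTR WT, and between 3.91 and 4.09 on the other arrays. Skeletal muscle genes averaged 6.89 and 6.46 in mTERT WT 1 and 3, and between 3.85 and 4.50 elsewhere. Means of the heart, brown fat and testis markers stayed between 3.32 and 4.04 on all 12 arrays.

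Promoters of 6 members are shown first, because they belong to members whose levels differed most clearly between the arrays of number 1 and the rest. RefSeq promoters (build GRCm38.p6) were at hand for 73 of the 90 members, and the 250 bases before the start given in that table were searched on both strands for NRF1 (GCGCA, any base, GCGC), ERR (AAGGTCA), ETS (CCGGAAG) and YY1 (AANATGGC), written in capitals where found, and for CCAAT and the SP1 box GGGCGG, left in lower case. The first 3 genes were higher in number 1 and the last 3 were lower. The windows are chr19:3912775-3913024, chr4:123718187-123718436 and chr10:80406822-80407071 for Ndufs8, Ndufs5 and Uqcr11, all on the minus strand, chr9:57520982-57521231 on the plus strand for Cox5a, and chr2:119662835-119663084 and chr3:105959264-105959513 on the minus strand for Ndufaf1 and Atp5pb. The start used lies at the edge of the gene's annotated span for the other 4, but 5 bases inside it for Ndufaf1 and 3904 bases inside it for Cox5a, so the Cox5a window is not the sequence before that gene's outermost start.
Ndufs8: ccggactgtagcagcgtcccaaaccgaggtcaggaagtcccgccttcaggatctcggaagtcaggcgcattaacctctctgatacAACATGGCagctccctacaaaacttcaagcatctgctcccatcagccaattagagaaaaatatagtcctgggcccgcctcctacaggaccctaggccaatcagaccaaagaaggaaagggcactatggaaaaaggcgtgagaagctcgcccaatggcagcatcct
Ndufs5: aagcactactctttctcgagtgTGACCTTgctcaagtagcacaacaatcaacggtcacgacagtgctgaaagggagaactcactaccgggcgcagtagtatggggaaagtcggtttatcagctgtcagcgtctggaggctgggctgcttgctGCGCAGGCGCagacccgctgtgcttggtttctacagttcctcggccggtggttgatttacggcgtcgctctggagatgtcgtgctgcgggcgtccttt
Uqcr11: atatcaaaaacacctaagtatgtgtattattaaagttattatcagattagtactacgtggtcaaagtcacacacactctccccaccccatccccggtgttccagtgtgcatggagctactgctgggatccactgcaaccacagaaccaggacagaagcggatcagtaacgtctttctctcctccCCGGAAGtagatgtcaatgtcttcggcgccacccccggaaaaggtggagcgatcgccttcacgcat
Cox5a: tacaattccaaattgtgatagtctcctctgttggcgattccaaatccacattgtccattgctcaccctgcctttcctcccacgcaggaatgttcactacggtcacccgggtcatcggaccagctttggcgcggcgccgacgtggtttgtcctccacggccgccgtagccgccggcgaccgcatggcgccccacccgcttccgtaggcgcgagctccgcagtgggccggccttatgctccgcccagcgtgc
Ndufaf1: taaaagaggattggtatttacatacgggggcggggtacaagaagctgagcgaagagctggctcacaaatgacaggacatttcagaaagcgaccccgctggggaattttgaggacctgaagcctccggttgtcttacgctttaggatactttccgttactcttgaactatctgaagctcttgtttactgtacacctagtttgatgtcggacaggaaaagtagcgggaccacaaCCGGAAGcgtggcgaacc
Atp5pb: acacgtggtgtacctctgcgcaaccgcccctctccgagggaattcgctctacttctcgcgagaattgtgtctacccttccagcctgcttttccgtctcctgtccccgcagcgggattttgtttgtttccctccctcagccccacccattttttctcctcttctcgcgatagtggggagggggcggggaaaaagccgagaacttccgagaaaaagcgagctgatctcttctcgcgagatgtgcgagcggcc
The Ndufs8 window held a YY1 match, that of Ndufs5 an NRF1 match and an ERR match read on the other strand, and those of Uqcr11 and Ndufaf1 an ETS match, while Cox5a and Atp5pb held none of these 4 motifs. Over the 73 members, 12 promoters (16.4%) held the NRF1 motif, against 3.9% of the 27025 promoters of the table, and 12 (16.4%) held the ETS motif, against 7.1%. The YY1 motif was in 5 (6.8%), against 3.9%, and the ERR motif in 4 (5.5%), against 4.1%. CCAAT stood in 32 (43.8%), against 34.5%, and the SP1 box in 29 (39.7%), against 32.9%; an ETS, NRF1 or SP1 match can overlap another in these GC-rich windows. These are matches of letters and not binding sites.

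The clearest pattern in the respiratory chain was a set-wise one: with the 4 groups held fixed in the fit, the 4 arrays of number 1 differed from the 8 arrays of numbers 2 and 3. Complex I subunits Ndufs8 and Ndufs5 were 2.22-fold higher, Atp5j2 of ATP synthase 1.79-fold and Uqcr11 of complex III 1.96-fold on the probe used. The second probe of Uqcr11 gave a smaller log2 difference of 0.34. Ndufs1, Ndufaf1, Cox5a, Atp5mpl and Atp5pb were lower, at 0.631 to 0.747 times the level of numbers 2 and 3. In all, 33 of the 88 tested members (37.5%) passed a limma test with Benjamini-Hochberg adjustment over 20197 probes at 0.05, 19 higher and 14 lower, beside 38.8% of all tested probes (17.5% higher and 21.3% lower). The share among the members was thus near that of all probes, and the median difference was −0.01 over the members and −0.02 over all probes. Each of the 33 had the same direction in all 4 groups, which their selection by a test over those groups favours. For 28 members (17 higher, 11 lower, 31.8% of the tested) the number 1 arrays did not overlap the other 8, beside 23.0% of all probes. Between number 3 and number 2, no member and no probe (0%) passed. The member with the smallest p there was Atp5g1, a c-ring subunit, with a difference of 0.27 (SE 0.0797, adjusted p = 0.699).

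**Figure D1:**
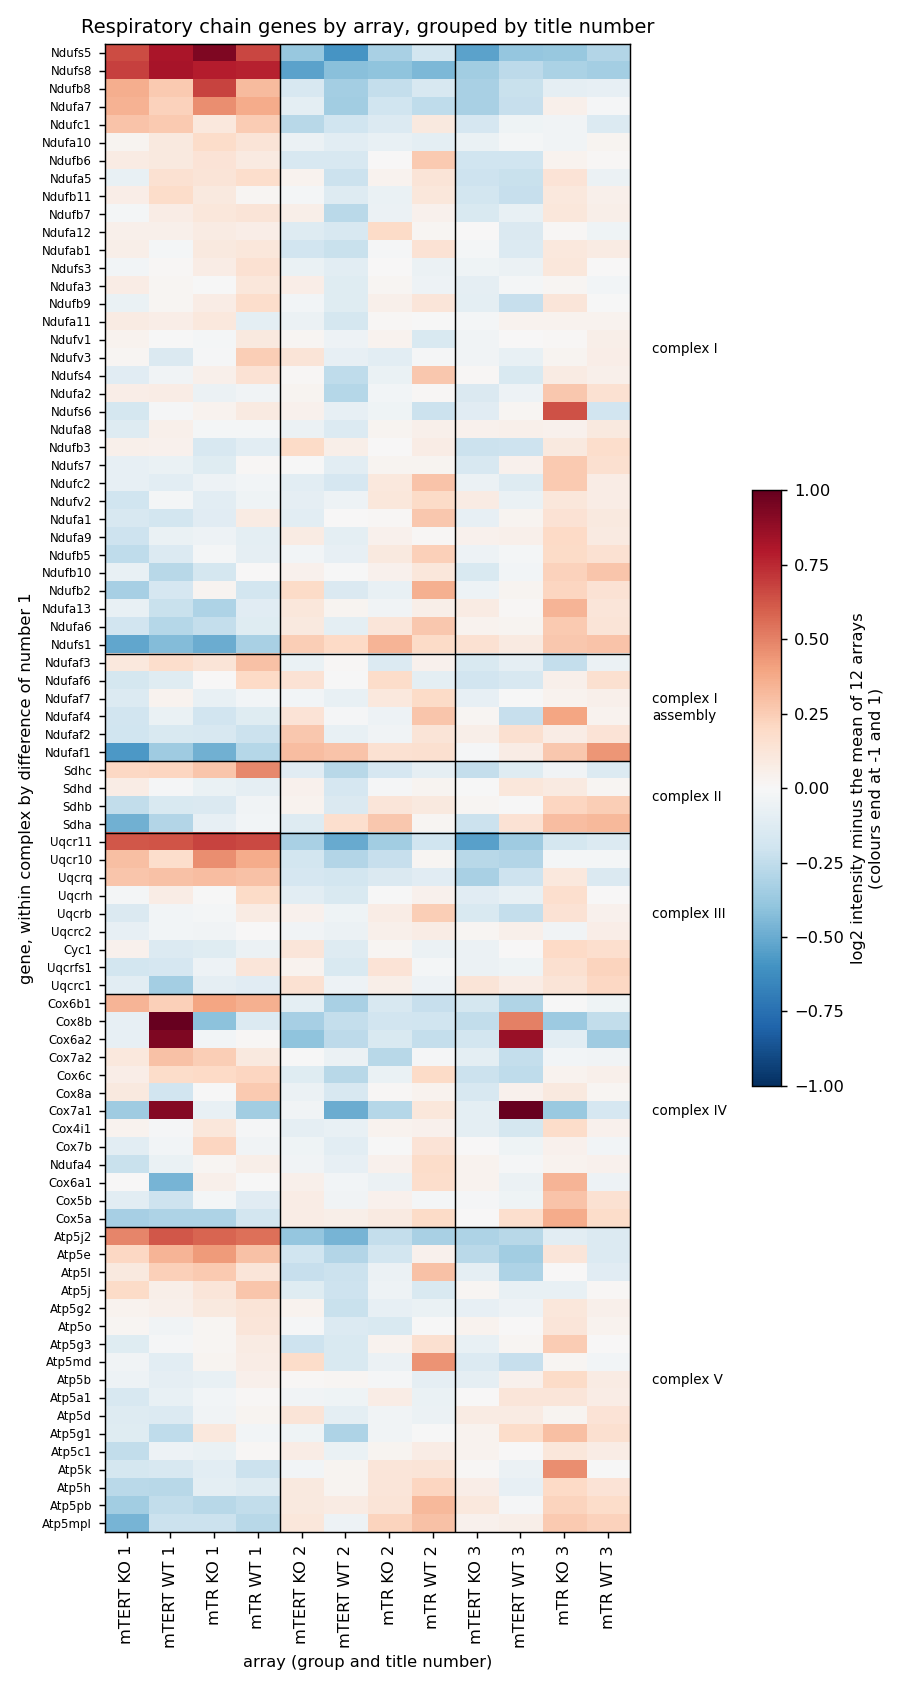
Log2 intensity of 83 of the 84 members above background (Cox7a2l is left out), minus the mean of the gene over the 12 arrays, with rows grouped by complex and columns grouped by title number. The 4 columns of number 1 share blocks of high (Ndufs8, Ndufs5, Uqcr11, Atp5j2) and low (Ndufs1, Ndufaf1, Cox5a) rows, whereas Cox6a2, Cox7a1 and Cox8b are high in mTERT WT 1 and 3.

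In complex I, 6 of 34 subunits were higher in number 1 and 4 were lower, beside 17.5% higher and 21.3% lower among all probes. Ndufs8, a core iron-sulphur subunit of the arm that reaches into the matrix, had log2 values of 8.33 for mTERT KO, 8.47 for mTERT WT, 8.43 for mTR KO and 8.41 for mTR WT in number 1, against 7.11 to 7.38 (median 7.27) on the other 8 arrays. The number 1 arrays lay far from the other 8. The difference was 1.15 (SE 0.0539, adjusted p = 2.17e-07), with 1.12, 1.17, 1.15 and 1.16 in the 4 groups taken singly. Ndufs5, an accessory subunit on the intermembrane side, had 8.83, 8.99, 9.11 and 8.85 in number 1 in the same order of groups, against 7.59 to 7.99 (median 7.80), a difference of 1.15 (SE 0.080, adjusted p = 3.82e-06). The accessory subunits Ndufb8, Ndufa7, Ndufc1 and Ndufa10 were higher by 0.61, 0.53, 0.34 and 0.16.

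Ndufs1, the largest core subunit, which carries several iron-sulphur clusters, went the other way. It had 8.79, 8.87, 8.81 and 8.98 in number 1, against 9.39 to 9.64 (median 9.53), a difference of −0.66 (SE 0.0641, adjusted p = 2.87e-05) with no overlap. The accessory subunits Ndufa6, Ndufa13 and Ndufb5 were lower, with −0.31, −0.27 and −0.19. Ndufv1, the core subunit that binds NADH and FMN, had a difference of 0.04 (adjusted p = 0.617). Complex I thus held calls in both directions on the same arrays, as did all probes (17.5% higher and 21.3% lower), so this is not particular to the complex.

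Of the 7 complex I assembly factors, Ndufaf3 was higher and Ndufaf1 and Ndufaf2 were lower, beside 17.5% higher and 21.3% lower among all probes. Ndufaf1, which helps build the membrane arm, had 7.32, 7.54, 7.41 and 7.60 in number 1, against 7.88 to 8.33 (median 8.11), a difference of −0.64 (SE 0.0851, adjusted p = 0.000233). Ndufaf2, a chaperone of late assembly, differed by −0.27 (adjusted p = 0.012) and Ndufaf3, which acts early on the ubiquinone-binding part, by 0.26 (adjusted p = 0.00332). With pancreas and muscle means as covariates none of the 3 passed (adjusted p = 0.0538 for Ndufaf1, 0.098 for Ndufaf2 and 0.101 for Ndufaf3), and Ndufaf3 did not pass within the mTERT line alone (adjusted p = 0.153).

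Complex II oxidises succinate and has only 4 subunits, 3 of which passed, beside 38.8% of all probes. Its membrane anchor Sdhc was higher in number 1, with 9.71, 9.72, 9.77 and 9.98, against 9.22 to 9.47 (median 9.37) and a difference of 0.44 (SE 0.0671, adjusted p = 0.0005). Its catalytic subunits were lower, Sdha, the flavoprotein, with −0.33 (SE 0.0707, adjusted p = 0.00376) and Sdhb, the iron-sulphur protein, with −0.22 (SE 0.0614, adjusted p = 0.0174), both with overlapping arrays. The other anchor, Sdhd, differed by −0.04 and did not pass. Sdha and Sdhb did not pass when pancreas and muscle means were added to the fit (−0.19 and −0.19, adjusted p = 0.315 and 0.264).

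In complex III, 3 small subunits were higher and 1 core protein was lower of 9 tested, beside 17.5% higher and 21.3% lower among all probes. Uqcr11, the smallest subunit, had 8.70, 8.71, 8.76 and 8.74 in number 1, against 7.54 to 7.94 (median 7.74), a difference of 0.97 (SE 0.0725, adjusted p = 5.49e-06). On its second probe the difference was 0.34. Uqcr10 and Uqcrq were higher by 0.49 (SE 0.0652) and 0.44 (SE 0.0694), though Uqcrq had an adjusted p of 0.066 with the same covariates. Uqcrc1, a large core protein on the matrix side, was lower, with a difference of −0.24 (adjusted p = 0.00987) and no overlap. Uqcrfs1, the Rieske iron-sulphur protein, and Cyc1, cytochrome c1, had differences of −0.11 and −0.10 that did not pass.

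In complex IV, which reduces oxygen to water, 4 of 16 tested subunits were higher and 1 was lower. Among all probes 17.5% were higher and 21.3% lower. Cox6b1, which lies on the intermembrane side at the dimer contact, had 10.04, 9.93, 10.09 and 10.05 in number 1, against 9.38 to 9.69 (median 9.53), a difference of 0.50 (SE 0.0598, adjusted p = 0.000112). Cox7a2 and Cox6c, membrane-spanning subunits, were higher by 0.28 and 0.25, and Cox7b2, with group means below the background level, had 4.37 to 4.72 in number 1, against 3.995 to 4.36 on the other arrays (0.36, adjusted p = 0.0874 with pancreas and muscle means as covariates). Cox5a, a matrix-side subunit, had 8.27, 8.30, 8.29 and 8.42, against 8.61 to 8.98 (median 8.73), a difference of −0.43 (SE 0.0667, adjusted p = 0.000615) with no overlap. Cox4i1, its neighbour in the complex, had a difference of 0.05 and Cox5b one of −0.17, and neither passed.

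In ATP synthase, 4 of 17 subunits were higher and 4 were lower, beside 17.5% higher and 21.3% lower among all probes. Atp5j2, subunit f of the membrane part, had 9.73, 9.87, 9.83 and 9.80 in number 1, against 8.78 to 9.15 (median 8.95), a difference of 0.84 (SE 0.0605, adjusted p = 4.39e-06). Atp5e, the epsilon subunit of the central stalk, was higher by 0.48, and Atp5l and Atp5j, subunits g and F6, by 0.27 and 0.24. Atp5pb, subunit b of the stator that holds the catalytic head still, had 10.05, 10.15, 10.12 and 10.15, against 10.38 to 10.72 (median 10.51), a difference of −0.42 (SE 0.0631, adjusted p = 0.000472). Atp5mpl, a small membrane proteolipid, was lower, with −0.44 (SE 0.0688; adjusted p = 0.0593 within the mTERT line alone), as were Atp5h and Atp5k, subunits d and e, with −0.29 and −0.25. The catalytic head subunits Atp5a1 and Atp5b differed by −0.09 and −0.06 and did not pass.

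**Figure D2:**
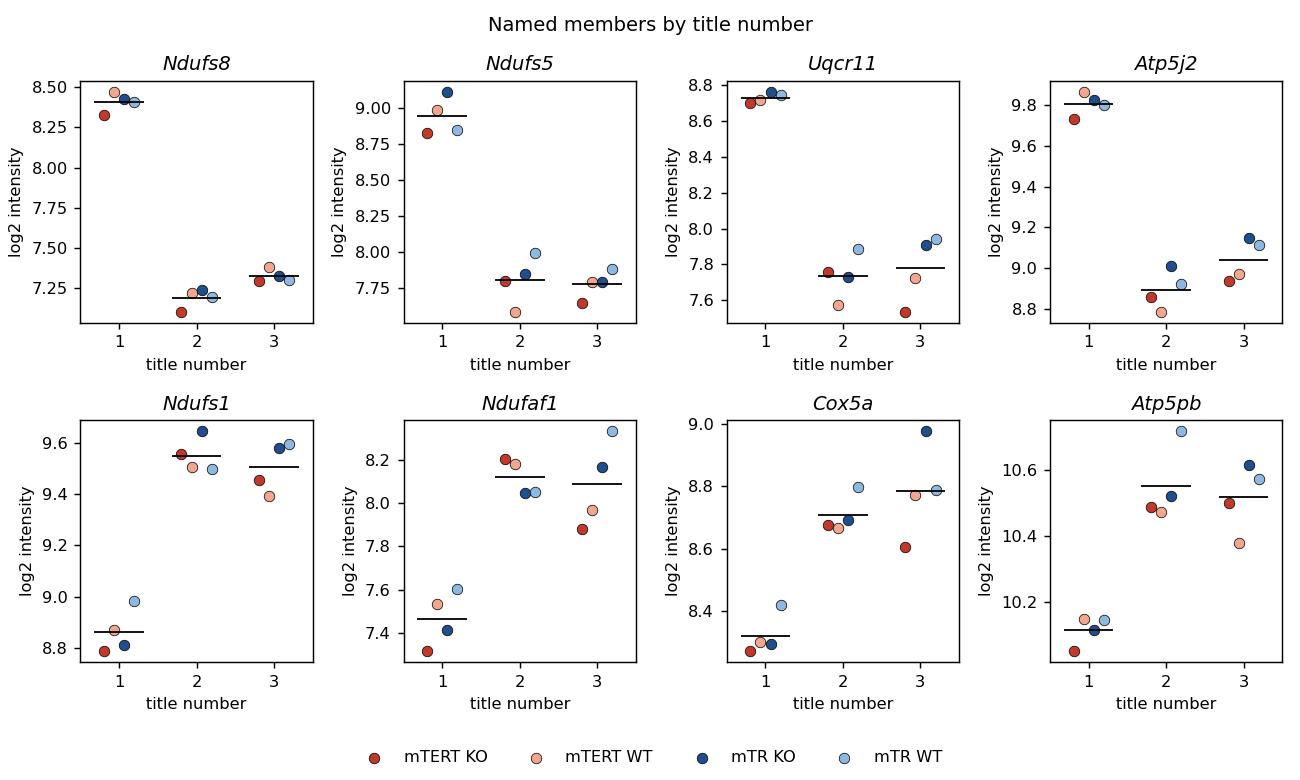
Log2 intensity of 8 members on each of the 12 arrays by title number, with colours for the 4 groups and a line at the mean of each number. Number 1 stands above numbers 2 and 3 for Ndufs8, Ndufs5, Uqcr11 and Atp5j2 and below them for Ndufs1, Ndufaf1, Cox5a and Atp5pb, in all 4 groups.

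Of 13 measured core subunits listed by name, 5 (38.5%) passed, a share near the 38.8% of all probes, and these were Ndufs1, Sdha, Sdhb, Uqcrc1 and Cox5a, all lower in number 1. Differences over the 13 ran from −0.66 for Ndufs1 to 0.05 for Cox4i1. The list was chosen with earlier results of these arrays known and does not hold Ndufs8, itself a core subunit, so this count is a description.

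**Figure D3:**
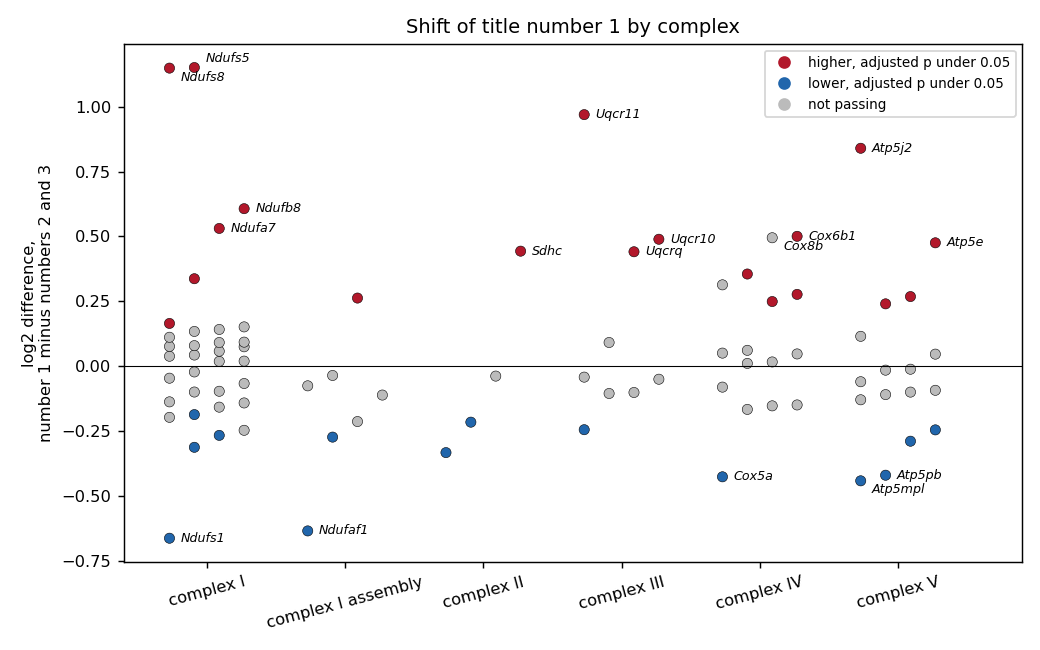
Log2 difference of each tested member, number 1 minus numbers 2 and 3, by complex; red points passed as higher, blue points as lower and grey points did not pass. Every complex holds points on both sides of 0, from −0.66 for Ndufs1 to 1.15 for Ndufs5.

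Genes with several probes mostly gave the same direction: 14 of the 17 such members had 1 sign on all their probes, and the other 3 (Atp5md, Cox7b and Uqcrb) had differences between −0.18 and 0.02. The size could depend on the probe. Uqcr11 differed by 0.97 on the probe used and by 0.34 on its second probe. Ndufa11, a membrane-arm accessory subunit counted as not passing with 0.06, had 0.82 on its other probe.

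Gene length and level were set beside the calls without a test. The 14 members that were lower in number 1 had a median genomic span of 13748.5 bp (range 1154 to 106064), against 6872 bp (1850 to 105383) for the 19 that were higher and 7131 bp for the 55 that did not pass, so the ranges overlapped almost wholly. The medians of the mean log2 level were 9.33 for the lower members, 7.95 for the higher ones and 8.62 for those that did not pass. Spearman's rho between span and difference was −0.20 over the 88 members and −0.25 over 14117 tested genes, and between level and difference it was −0.21 and −0.13, all given as descriptions, since all points share the same 12 arrays. Promoters of the lower members had a median GC content of 60.6% (12 promoters), against 54.8% for the higher members (16), 56.4% for those that did not pass (45) and 52.0% for all promoters. The NRF1 motif stood in 3 of 12 lower, 1 of 16 higher and 8 of 45 other members, and the ETS motif in 2 of 12, 4 of 16 and 6 of 45. Only Atp5b and Atp5c1 overlapped a small nucleolar RNA gene, and neither passed.

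Pancreas transcripts moved with number 1 in part, and their part in the result was not tested. Acinar genes averaged 3.99 in mTR WT 1, no higher than on arrays without them, and there Ndufs8 read 8.41, Ndufs5 8.85, Uqcr11 8.74 and Ndufs1 8.98, all on the number 1 side of the other 8 arrays. Those genes were chosen by their values, on a single array. With pancreas and muscle means as covariates, 13 members passed (9 higher, 4 lower) instead of 33, beside 11.3% of all probes instead of 38.8%. All 33 kept their sign. Within the mTERT line alone 17 passed, beside 18.5% of all probes, and within the mTR line alone 19, beside 23.1%. All 33 kept their sign in each line, but they had been picked on these same arrays. Of the hepatocyte markers, Ttr was higher (0.16) and Cyp2e1 lower (−0.19), with means of 12.95 to 12.98 in number 1, against 12.97 to 13.09. Of the 2 red cell genes, Alas2 was higher (0.20) and Slc4a1 did not pass (0.03), with a mean of 6.55 in number 1, against 6.43. What these markers had to do with the result was not tested.

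Genes that serve the chain without belonging to it were counted in the same table, and those named were chosen after their values were seen. Of 15 tricarboxylic acid cycle genes, 6 were lower in number 1 and 0 higher, among them Dld, the lipoamide dehydrogenase of the 2-oxoacid dehydrogenases (−0.51, SE 0.0637), and Sucla2, a succinyl-CoA ligase subunit (−0.38, SE 0.0689). Of 35 assembly factors of all complexes without the Nduf prefix, 4 were higher and 11 lower. The complex III assembly factors split, Uqcc2 at 0.75 (SE 0.0541) and Uqcc1 and Uqcc3 at −0.60 and −0.75 (SE 0.0657 and 0.0926), and Sdhaf4, which protects and hands over the flavoprotein of complex II, was higher by 0.77 (SE 0.0591). Of 13 electron carrier and ubiquinone synthesis genes, 2 were higher and 5 lower. Of 77 mitochondrial ribosome genes, 10 were higher and 17 lower, and of 60 tested cytosolic ribosome genes, 21 were higher and 11 lower. Of 7 ATP export and membrane genes, 0 were higher and 1 lower. Among all tested probes, 17.5% were higher and 21.3% lower. Counts in both directions thus also occurred outside the respiratory chain, but not in the tricarboxylic acid cycle or ATP export lists.

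Among 7 regulators of mitochondrial biogenesis, 1 was higher and 2 were lower in number 1, beside 17.5% higher and 21.3% lower among all probes. Esrra, which encodes ERR alpha, was higher by 0.28 (SE 0.0819, adjusted p = 0.0207). Gabpa, the ETS subunit of GABP, was lower, with −0.65 (SE 0.063, adjusted p = 2.97e-05), and so was Tfam, which packages mitochondrial DNA and helps transcribe it, with −0.39 (SE 0.0839, adjusted p = 0.00387). Ppargc1a, the coactivator PGC-1 alpha, had −0.11 and did not pass. Of 10 genes of mitochondrial transcription and replication, Polrmt, the mitochondrial RNA polymerase, was higher by 0.71 (SE 0.0962), and Tfb2m, its initiation factor, was lower, with −0.65 (SE 0.0658), in a count of 2 higher and 4 lower. Gabpa and Atp5j overlap on the genome, and whether the probes separate their transcripts was not tested. Of the 2 mitochondrially encoded subunits with a probe, COX2 was lower, with −0.27 (SE 0.059, adjusted p = 0.00446) and ND3 had −0.13 (adjusted p = 0.134).

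No member passed the threshold in either knock-out. Between mTERT KO and mTERT WT, 0 of 88 members and 0 of 20197 probes (0%) passed in limma, and 0 members higher and 2 lower had an unadjusted p under 0.05, beside 150 and 133 of all probes. Between mTR KO and mTR WT, again 0 members and 0 probes (0%) passed, and 0 members reached an unadjusted p under 0.05 in either direction, beside 78 higher and 117 lower probes. The median difference of the members was 0.02 in the mTERT line (all probes 0.01), with 55 of 88 above 0, and −0.01 in the mTR line (all probes −0.01), with 35 above 0. Both medians turned sign under other settings: the mTERT one was −0.02, with 38 above 0, without mTERT WT 2, and the counts above 0 ran from 38 to 64 in the mTERT line and from 27 to 45 in the mTR line. The average of both KO effects (median −0.001) and the difference between them (median 0.04, all probes 0.02) also gave 0 members and 0 probes (0%).

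The intervals bound what these groups of 3 could hide. The 95% interval of the KO effect lay within a 2-fold change in either direction for 83 of 88 members when mTERT was deleted and for 86 when mTR was. By complex the medians in the mTERT line were 0.03 for complex I, −0.06 for the assembly factors, 0.02 for complexes II and III, 0.01 for complex IV and 0.015 for complex V. In the mTR line they were −0.01, −0.06, −0.01, −0.03, −0.01 and 0.00 in the same order. The 13 core subunits lay between −0.28 (Sdha) and 0.17 (Uqcrc1) for the mTERT deletion and between −0.05 (Atp5o) and 0.09 (Cox5b) for the mTR deletion.

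Among members higher in mTERT KO, those with the smallest p did not pass and had small or uneven differences. Cox7a2l, which joins complexes III and IV into supercomplexes and is known to be shortened in C57BL/6 mice, had 7.85, 7.75 and 7.80 in mTERT KO, against 7.51, 7.72 and 7.62 in mTERT WT. On the probe used the groups did not overlap, and the difference was 0.19 (SE 0.0878, adjusted p = 1). The second probe of Cox7a2l had overlapping groups, with mTERT WT 2 and 3 above mTERT KO 1 and 3. Ndufv3, an accessory subunit at the NADH end of complex I, had 7.16, 7.28 and 7.11 in mTERT KO, against 6.9995, 7.06 and 7.07 in mTERT WT, a difference of 0.14 (SE 0.0959, adjusted p = 1). Cox6a1, the common liver form of its subunit, had 9.54, 9.58 and 9.56 in mTERT KO, against 9.07, 9.51 and 9.47 in mTERT WT, where replicate 1 was lowest, and the difference of 0.21 (SE 0.138) was 0.07 without that array. With Cox6b2 and Ndufaf5, these were the 5 members (5.68%) whose mTERT groups did not overlap on the probe used, beside 4.33% of all probes. Cox6b2 and Ndufaf5 had group means below background and were lower in the KO. Sdha was lower in KO in each of the 3 mTERT litters (−0.19, −0.30 and −0.36), a difference of −0.28 (SE 0.164) that did not pass. Other members also kept 1 sign in all 3 mTERT litters, such as Atp5g3 (lower) and Uqcrc1 (higher). The share of all probes that did so was not counted. In the mTR line 0 members had groups that did not overlap, beside 4.48% of all probes.

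In the mTR line the smallest p among members belonged to Ndufs6, a subunit of complex I. It had 7.64, 7.56 and 8.24 in mTR KO, against 7.70, 7.39 and 7.42 in mTR WT, so the difference of 0.32 (SE 0.164, adjusted p = 1) came from mTR KO 3, and it was 0.10 without that array. Atp5k, subunit e of ATP synthase, had 8.19, 8.41 and 8.76, against 8.08, 8.42 and 8.29, a difference of 0.19 (SE 0.144) that was 0.04 without mTR KO 3. Cox4i1 had a difference of 0.09 (SE 0.0878). On the lower side, Ndufaf5, with group means below background, had −0.19, Ndufa1, a small membrane-arm subunit, had −0.14 (SE 0.102), and Ndufv3 had −0.13 (SE 0.0959).

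Regulators, assembly factors and the other lists also had 0 genes past the threshold in either knock-out. Ppargc1a had a difference of 0.22 (SE 0.29) for mTERT and 0.03 (SE 0.29) for mTR, and COX2, encoded in mitochondrial DNA, had 0.08 (SE 0.135) and −0.01 (SE 0.135).

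**Figure D4:**
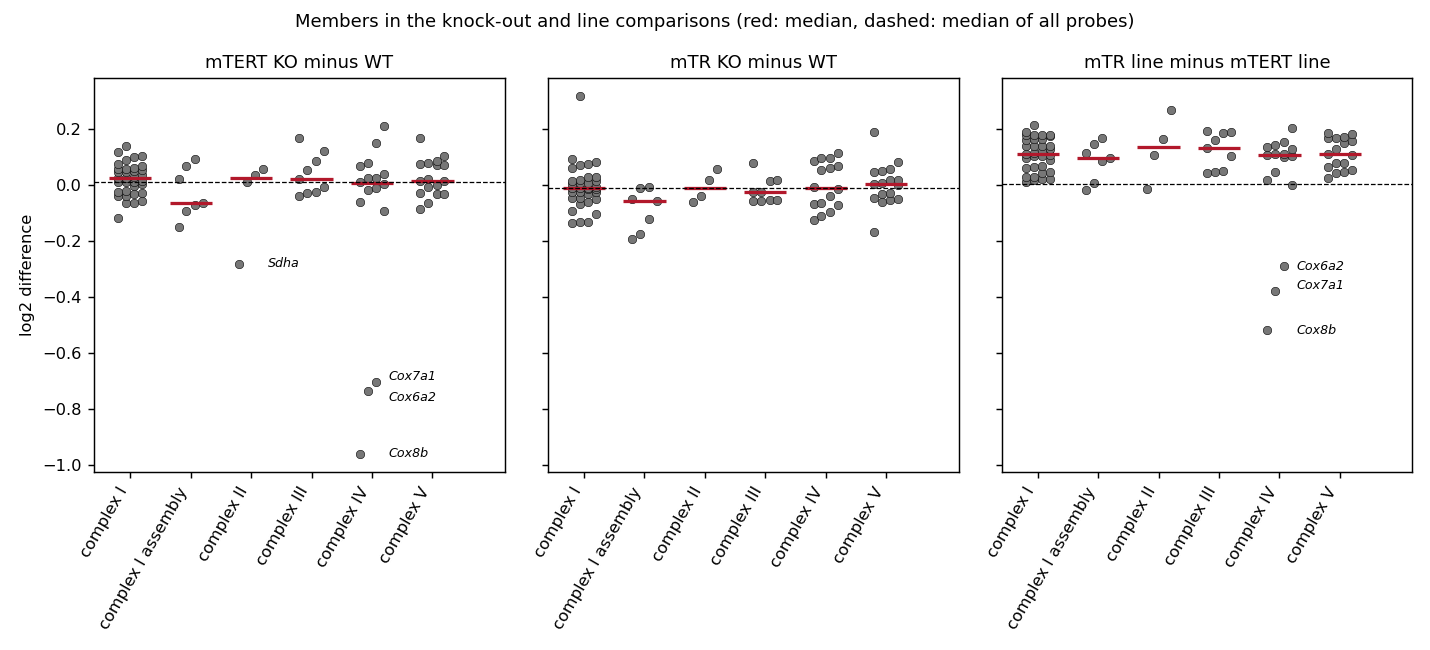
Log2 differences of the tested members by complex in 3 comparisons, with the median of each complex in red and the median of all tested probes as a dashed line; Cox7a2l is left out. Most points lie close to 0 in both KO comparisons, Cox6a2, Cox7a1 and Cox8b are low in the mTERT line, and in the line comparison the medians lie near 0.11.

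The members with the largest differences in the mTERT line were 3 muscle forms of complex IV subunits, and they followed the muscle transcripts of 2 WT arrays. Cox6a2 had 4.25, 3.93 and 4.15 in mTERT KO, against 5.26, 4.07 and 5.20 in mTERT WT, where replicates 1 and 3 were high and replicate 2 was not. Cox7a1 had 4.74, 5.06 and 5.001 in mTERT KO, against 6.01, 4.60 and 6.30 in mTERT WT. Cox8b had 4.01, 3.76 and 3.84 in mTERT KO, against 6.05, 3.85 and 4.59 in mTERT WT. The differences were −0.74 (SE 0.256), −0.70 (SE 0.338) and −0.96 (SE 0.393), each with an adjusted p of 1. Outside mTERT WT, group means were below the background of 4.34 for Cox6a2 (4.11 to 4.24) and Cox8b (3.77 to 3.895). Those of Cox8b were also below the filter level of 3.898. Cox8b thus entered the test only through its high mTERT WT arrays, and its difference is a description. On the 6 mTR arrays the values were 3.97 to 4.34 for Cox6a2, 4.72 to 5.21 for Cox7a1 and 3.68 to 3.95 for Cox8b.

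These values depended on which WT arrays entered, and what the muscle transcripts had to do with them was not tested. Leaving out mTERT WT 2, which had no muscle transcripts, kept only mTERT WT 1 and 3, which both had them. Cox6a2 then passed with −1.12 (adjusted p = 0.00461) and Cox7a1 with −1.22 (adjusted p = 0.0117). Cox8b was −0.35 without mTERT WT 1. Without both mTERT WT 1 and 3, a pair picked by its muscle level, Cox6a2 differed by 0.04 and Cox7a1 by 0.33. Cox8b was too dim for the filter there and was not tested. All 13 skeletal muscle genes were lower in mTERT KO than in mTERT WT on average, with a median of −1.65, although 0 of them passed. Their means were 4.50, 3.91 and 3.96 in mTERT KO, against 6.89, 3.96 and 6.46 in mTERT WT. The common forms Cox6a1, Cox7a2 and Cox8a differed by 0.21, 0.00 and 0.07 and did not pass. The other tested tissue-restricted forms, Cox4i2, Cox6b2 and Cox7b2, had KO effects of −0.01, −0.09 and 0.03 (mTERT) and 0.12, −0.01 and −0.07 (mTR), with group means below the background level.

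**Figure D5:**
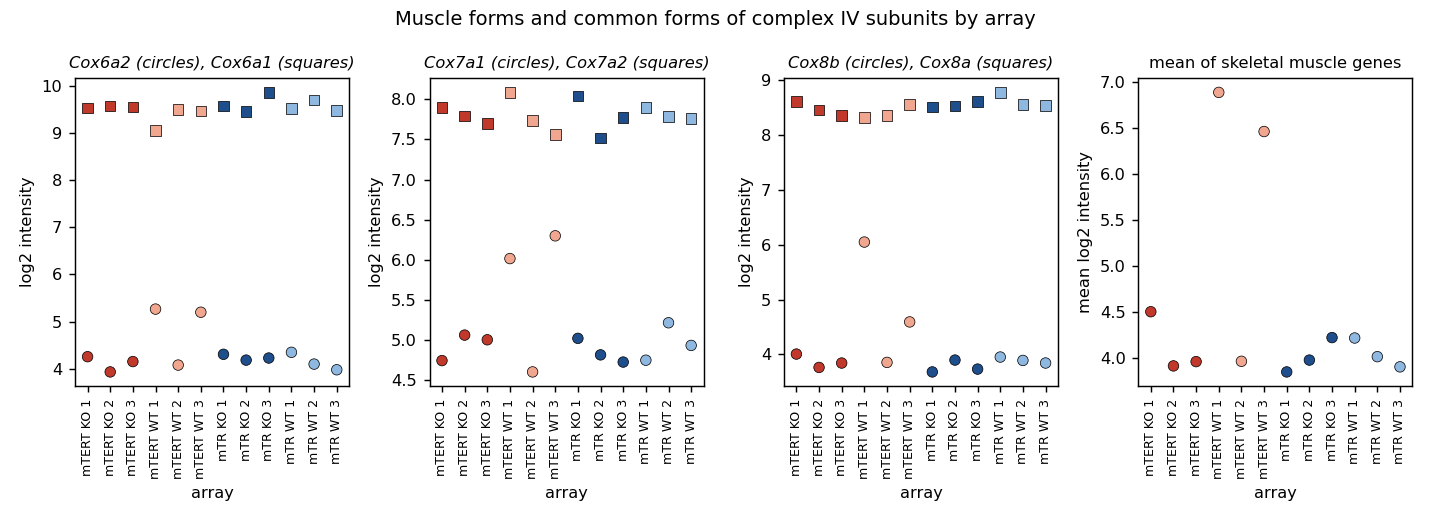
Log2 intensity on each array of the muscle forms Cox6a2, Cox7a1 and Cox8b (circles) and the common forms Cox6a1, Cox7a2 and Cox8a (squares), and the mean of 13 skeletal muscle genes. The muscle forms are high in mTERT WT 1 and 3, the arrays with muscle means of 6.89 and 6.46.

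Between the lines the members lay to one side of 0, by small amounts that did not pass one by one. In the mTR line against the mTERT line, a comparison added after the values were seen, the median difference was 0.11 over the members, against 0.00 over all probes, and 82 of 88 members were above 0, against 10507 of 20197 probes. No member and no probe (0%) passed in limma, while 11 members higher and 0 lower had an unadjusted p under 0.05, beside 284 and 278 of all probes. The medians were 0.11 for complex I, 0.10 for its assembly factors, 0.14 for complex II, 0.13 for complex III and 0.11 for complexes IV and V. The 6 members not above 0 were Cox6a2, Cox7a1, Cox8b, Cox7a2, Ndufaf2 and Sdhd. Muscle and pancreas transcripts were lower in the mTR line: 0 of 13 skeletal muscle genes (median −0.93) and 0 of 11 acinar genes (median −0.66) were above 0, and between the WT groups the medians were −1.69 and −1.71. Without the 2 arrays with muscle transcripts 82 members were above 0, and with pancreas and muscle means as covariates 77 were.

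The mean over the 84 members above background was 8.61, 8.55 and 8.67 for the KO and 8.64, 8.62 and 8.61 for the WT mice of the mTR line. For the mTERT line it was 8.54, 8.54 and 8.48 in KO mice and 8.61, 8.44 and 8.53 in WT mice. The lines overlapped, with mTR KO 2 below mTERT WT 1. For complex V the mTR arrays had means of 9.71 to 9.86, all above the mTERT arrays at 9.59 to 9.70, but the nearest values were 9.7094 and 9.6992. For complex I they had 8.28 to 8.40, against 8.15 to 8.33, with overlap. The lines also overlapped for complexes II, III and IV.

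Ndufc2, an accessory subunit of the complex I membrane arm, had 9.21, 9.37 and 9.52 in the KO and 9.24, 9.55 and 9.33 in the WT mice of the mTR line. In the mTERT line it had 9.18, 9.15 and 9.20 in KO mice and 9.16, 9.10 and 9.14 in WT mice. It was the single member (1.14%) whose lines did not overlap, beside 0.198% of all probes, with a difference of 0.22 (SE 0.0759, adjusted p = 1). Ndufb9 and Ndufab1 (Ndufab1 is the mitochondrial acyl carrier protein that also serves as a complex I subunit) differed by 0.18 each. Between the WT groups alone, mTR WT minus mTERT WT, the median was 0.12 over the members, against 0.01 over all probes, 82 of 88 were above 0, and 0 members and 0 probes (0%) passed. The smallest p values among the higher members there belonged to Ndufs4, an accessory subunit of the matrix arm (0.30, SE 0.0986), Atp5md, a small subunit that links ATP synthase dimers (0.33, SE 0.129), and Ndufab1 (0.24, SE 0.0955), each with an adjusted p of 1.00.

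Other lists also lay above 0 in the line comparison: 56 of 60 cytosolic ribosome genes (median 0.07), 60 of 77 mitochondrial ribosome genes (median 0.06), 13 of 15 tricarboxylic acid cycle genes (median 0.07) and 12 of 13 electron carrier genes (median 0.10). The regulators had a median of −0.035. The lines differ in breeding and litters as well as in the gene deleted, so the line and the colony cannot be told apart.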

How the data were processed

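The authors deposited log2 intensities, made with GCOS 1.4, Expression Console (Affymetrix) and PLIER per the submitters' processing notes, which give no order, and they were used as deposited. The base 2 was read from the range of 2.62 to 13.83, and base and normalization are not given in the sources used here. Each column is a single array. The labels' protocols give Trizol extraction and 1 round of random-primed T7 amplification. The platform annotation gave 1 gene symbol to 21789 of 28853 probes, several to 1621 and none to 5443, and all 90 members matched RefSeq (GRCm38.p6).

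limma 3.58.1 under R 4.3.3 fitted 4 group means over 12 arrays for the group comparisons, and the title number beside the groups for the number comparisons. The 20197 probes whose mean reached the 30th percentile (log2 3.898) were tested two-sided by eBayes, with Benjamini-Hochberg adjustment over all of them and a threshold of 0.05. SE is the moderated standard error. The number of arrays limits the precision, and the p-values measure the spread between animals of these litters. The script was tested on simulated data.

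The series text makes KO and WT mice of a set littermates. Their deviations from the group means had correlations of 0.692, 0.135 and 0.623 (mTERT) and 0.458, 0.151 and 0.552 (mTR) for numbers 1 to 3. The shift of number 1 was not removed from these deviations, so the correlations do not measure the likeness of littermates alone. With number in the fit, the correlation within litters was 0.0043. The litter was a replicate block in an alternative. Number 2 of the KO correlated more with number 3 of the WT, at 0.416 and 0.464.

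Named with values are the listed core and tissue-restricted subunits, the 3 members per direction with the smallest p in each group comparison, up to 3 per complex in each number comparison, and members with opposite KO effects in the lines. The other members that passed in number 1 were named after their values were seen. The members and lists were chosen with earlier results of these data known. Alternatives were other normalizations, filters, weights, blocks, probe summaries and covariates, single lines, and leaving out arrays.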

Additional observations from a re-analysis of the deposited data

Results flagged for a closer look

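The complex I subunits Ndufv3 and Ndufs8 had KO effects of opposite sign in every litter of the lines. The share of all probes with such signs was not counted, so this is a description. Ndufv3 was higher in the KO in the mTERT line, by 0.16, 0.22 and 0.04 in litters 1 to 3, and lower in the mTR line, with −0.26, −0.09 and −0.04. The difference between the KO effects was 0.27 (SE 0.136, adjusted p = 1.00 in limma). Ndufs8 had −0.14, −0.12 and −0.09 in the mTERT litters and 0.02, 0.05 and 0.02 in the mTR litters. Its difference of −0.15 (SE 0.652, adjusted p = 1.00) goes with group SDs of 0.66 to 0.68, number 1 being high in each group. With the litter as a replicate block, the adjusted p was 0.785 for Ndufv3 and 0.853 for Ndufs8. Groups of 3 arrays were not searched for single outlying arrays.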

How the results depend on the processing

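In number 1, where 33 members passed, 13 did so with pancreas and muscle means as covariates, 17 within the mTERT line, 19 within the mTR line and 21 (beside 19.3% of all probes) without mTERT WT 1 and mTR KO 1; all of these use fewer arrays or residual degrees of freedom. Leaving out each array in turn gave 27 to 34, and all 33 kept their sign in all 25 settings, save 1 not tested at the 50th percentile. The 33 had been picked on these same arrays, so the kept signs are a description. Ndufs8, Ndufs5, Ndufs1, Uqcr11, Uqcr10, Cox6b1, Cox5a, Atp5j2, Atp5pb and Sdhc passed in every one, and Sdhb failed in 6 of 25, Ndufaf2 in 5, and Sdha, Ndufaf3 and Cox7b2 in 3 each. Without single arrays the count was 0 to 2 in mTERT KO minus WT, 0 to 1 in the difference between the KO effects and 0 to 2 in mTR WT minus mTERT WT, the nonzero counts all without mTERT WT 2. The median of the mTERT KO effect moved to 0.0761 without mTERT WT 1 and 3 and turned to −0.0031 with quantile normalization. Over all settings it ran from −0.0173 to 0.0761, and the median of the mTR KO effect from −0.0465 to 0.005, so both lay on either side of 0. The blocks (litter, and title number for the lines) gave 0 members in each group comparison, and the litter as a random replicate block, with a correlation of 0.0043, gave 33 in number 1, so pairing changed no call. Across the settings, 68 to 83 members were above 0 in mTR WT minus mTERT WT and 76 to 83 in the line comparison. The 6 members whose group means lay below background, Cox7b2 and Ndufaf5 among them, have values limited by the signal.

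Signs turned for the muscle forms and for small differences, and the cause was not tested. With the covariates, the mTERT KO effect became 0.0396 for Cox8b, 0.0547 for Cox7a1 and 0.79 for Ndufs8, the average KO effect 0.0361 for Cox6a2, the mTR KO effect −0.16 for Ndufs8, and the difference between the KO effects 0.18 for Cox8b and 0.95 for Ndufs8. With the same covariates, mTR WT minus mTERT WT became 0.0453 for Cox6a2, 0.14 for Cox8b and 0.11 for Cox7a1, the line difference 0.045 for Cox8b, 0.11 for Cox6a2 and 0.042 for Cox7a1, and number 3 minus 2 became 0.0093 for Cox7a2l. Without mTERT WT 1 and 3, the mTERT KO effect became 0.0359 for Cox6a2, 0.33 for Cox7a1 and 0.35 for Ndufs8, the WT difference 0.0643 for Cox6a2 and 0.36 for Cox7a1, and the line difference 0.095 for Cox6a2 and 0.14 for Cox7a1. Cox7a2l became 0.002 in number 1 without mTERT WT 1 and mTR KO 1, Cox6a2 became −0.038 in number 3 minus 2 within the mTR line, and the mTR KO effect of Ndufs8 became −0.009 with array weights. Leaving out single arrays, Ndufs8 ranged from −0.491 to 0.273 in the mTERT KO effect, −0.352 to 0.416 in the mTR KO effect and −0.532 to 0.243 in their difference, turning sign without 3, 3 and 5 arrays, and Cox7a2l from −0.0735 to 0.006 in number 3 minus 2, where mTERT WT 2 turned it.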
